A study of Macaca mulatta with 12 samples.

Results

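M-MZL BC is the name the depositors gave to a cluster of marginal zone-like B cells in the blood of rhesus macaques. Its members were taken by that annotation alone, as all cells whose deposited name, without the cluster number, reads M-MZL BC. There were 1559 of them among 13849 cells, or among the 13324 cells that carry the name of a B cell subtype, with 11 other subtypes beside them. The blood came from 6 healthy, unmanipulated juvenile macaques of Indian origin, aged 2 to 3 years, and each animal gave a 5' single-cell expression library and a B cell receptor (BCR) library. Both males were in batch 1 and all 4 females in batch 2, so sex and batch cannot be told apart, and no group was treated. Animals are called male 1 and 2 and female 1 to 4 below.

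Marginal zone B cells line the border of the white pulp in the spleen, where blood flows past them, and answer blood-borne antigens such as bacterial polysaccharides rapidly with IgM, often without T cell help. They are known for high complement receptors (CD21, the product of CR2) and CD1 molecules, and in mice they depend on signals through NOTCH2. In primates, cells of this kind also circulate, carry IgM and often bear mutated variable genes.

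Receptor sequences are shown first, since the divergence of their variable genes is measured apart from the expression profile. IGHV3-116, a heavy chain variable gene, is shown because it was the most used IGHV gene of M-MZL BC, and male 1 because it had the most such cells. The first line is the common IGHV3-116 sequence of that animal (framework 1 to framework 3, 294 bases, seen with 35 distinct CDR3s). The second is the sequence of an IgM M-MZL BC cell of median divergence among the 57 of that animal that differed from it, with its 5 differences in capitals. Both were chosen after their values were seen.
male 1 common IGHV3-116: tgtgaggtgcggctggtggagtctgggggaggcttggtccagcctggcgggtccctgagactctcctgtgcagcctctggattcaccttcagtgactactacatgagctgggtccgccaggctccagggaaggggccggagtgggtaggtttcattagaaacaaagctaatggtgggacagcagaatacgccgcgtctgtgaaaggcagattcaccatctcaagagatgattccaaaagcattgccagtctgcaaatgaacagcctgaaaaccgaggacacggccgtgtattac
male 1 M-MZL BC cell: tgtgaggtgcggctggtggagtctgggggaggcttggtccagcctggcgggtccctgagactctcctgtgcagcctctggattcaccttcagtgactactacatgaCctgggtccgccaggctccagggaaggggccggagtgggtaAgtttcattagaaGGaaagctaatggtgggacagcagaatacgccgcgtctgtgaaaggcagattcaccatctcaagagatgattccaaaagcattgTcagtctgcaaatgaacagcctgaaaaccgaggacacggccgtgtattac
The 5 differences make a divergence of 1.70 per 100 bases. Of these, 2 lie in framework 2, 2 in CDR2, 1 in framework 3 and 0 in framework 1 or CDR1.

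M-MZL BC made up 21.7% of the named B cells of male 1 (603 cells, 95% exact binomial interval 20.2 to 23.3%) and 21.5% of those of female 4 (121 cells, 18.2 to 25.1%). The share was 9.85% in male 2 (264 cells), 9.49% in female 1 (253 cells), 7.09% in female 3 (216 cells) and 6.39% in female 2 (102 cells). Male 1 and female 4 thus lay above the others by more than counting error, and they belong to different sexes and batches. The mean was 12.7% ± 7.05 (SD, n = 6), and the intervals cover counting error only.

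Total UMIs per animal ran from 3642517 to 20023015. Median UMIs per M-MZL BC cell ran from 4343 to 7080 by animal, against 3927 to 6714.5 in the other named B cells. The mean share of UMIs from ribosomal protein genes was higher in M-MZL BC than in the pooled other B cells in 6 of 6 animals (19.1% ± 2.02 against 16.2% ± 1.97). By subtype, Naive B cells 1 were higher still, at 21.2%, and C-MBC 2 close, at 18.8%. Naive B cells 2 and 3 were lowest, at 3.91 and 4.83%. Of the barcodes, 96 occurred in more than 1 library and 26 M-MZL BC cells carried one, but none of the 59 pairs of named cells that could be compared had the same heavy CDR3. Thinned to 2000 UMIs, 81.0% of M-MZL BC cells held a UMI of MS4A1 (CD20) and 86.5% one of CD79A, a chain of the receptor complex (96.8% and 97.9% unthinned). For NKG7, a natural killer (NK) cell gene that B cells should lack, the share was 1.54% thinned and 2.85% unthinned.

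The 3 marker genes given for M-MZL BC were high in it in nearly all animals, but 2 of them were as high or close to it in another subtype. Levels are CPM, UMIs of a gene scaled to the total of the named genes outside the immunoglobulin loci, summed over the cells of an animal. The clusters were made from the same expression values, so differences from other subtypes are descriptions without a test. They are log2 differences of CPM within each animal (a prior count of 2 added), either from 1 named subtype or from the other subtypes averaged on the log2 scale. Each subtype weighs the same in this average, so Naive B cells 3 (125 cells) count as much as M-MBC 1 (2190 cells). A gene above this average can still be level with or below single subtypes.

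NIBAN3, a member of the Niban family, was at 53.5 and 63.1 CPM in the males and at 71.0, 14.9, 74.5 and 58.1 in females 1 to 4. Female 2 stood low, and the mean was 55.9 ± 21.5 (SD, n = 6), a log2 difference of 2.93 ± 0.44. Activated B cells held 44.6 ± 23.6 CPM and were below M-MZL BC in 5 of 6 animals. RASSF6, of the Ras association domain family, was at 39.1 and 69.6 CPM in the males and 80.4, 25.3, 160.9 and 165.8 in the females, a log2 difference of 3.05 ± 0.85. Females 3 and 4 stood highest, and M-MZL BC exceeded Activated B cells (58.5 CPM) in 6 of 6 animals. VPREB3, a relative of the surrogate light chain gene VPREB1, was at 68.4 and 37.1 CPM in the males and 59.4, 40.2, 99.3 and 140.2 in the females, a log2 difference of 2.82 ± 0.70. C-MBC 2 held 71.2 ± 30.2 CPM of VPREB3, and M-MZL BC was above it in only 3 of 6 animals. All 3 genes were listed at 0 in antibody-secreting cells (n = 3).

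**Figure D1:**
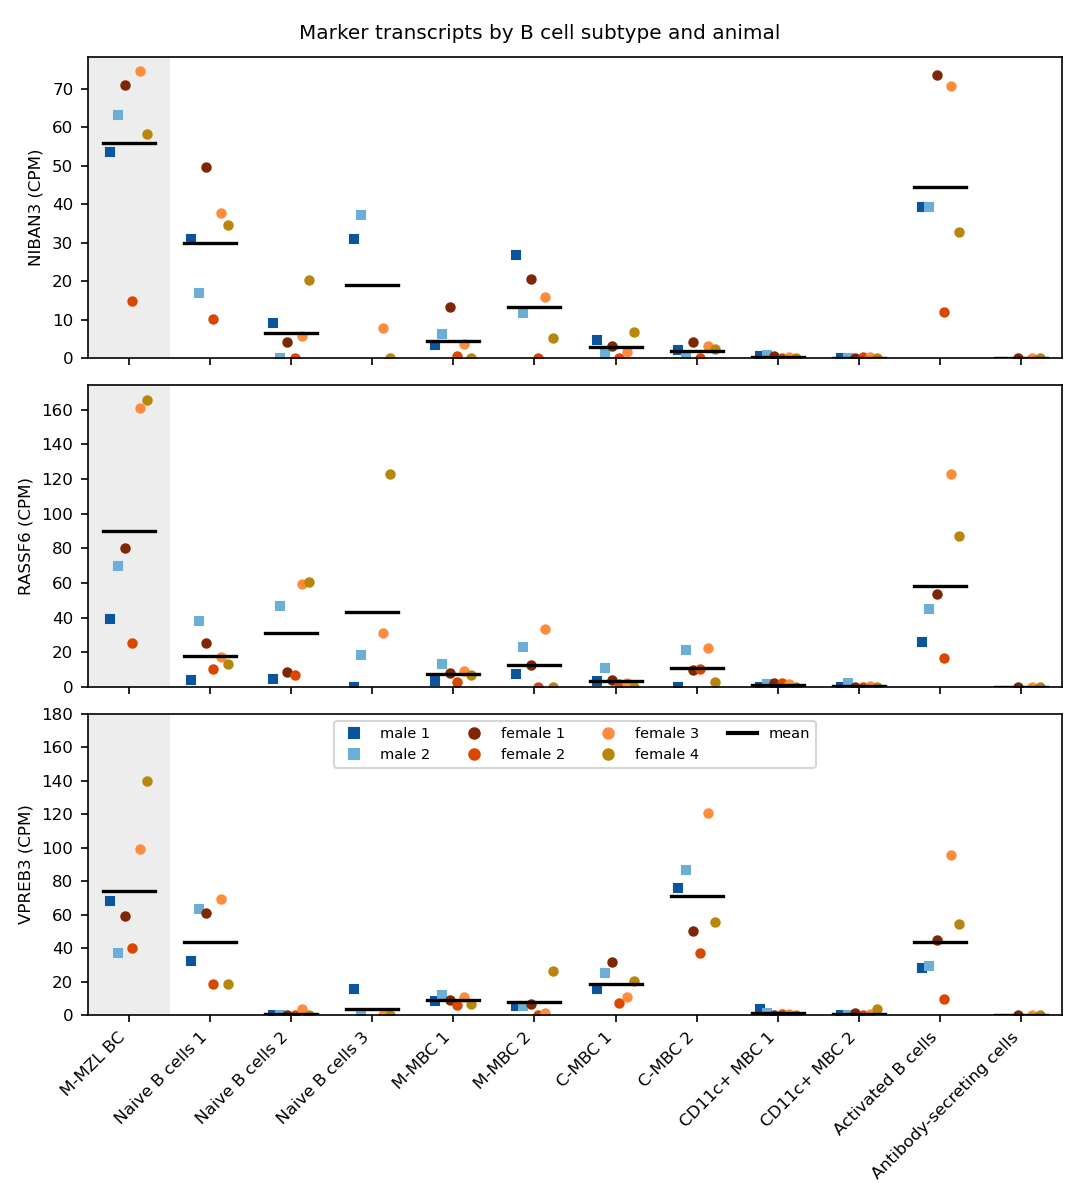
Level of NIBAN3, RASSF6 and VPREB3 (CPM, vertical axes) in each subtype with 10 or more cells of an animal; points are animals and bars means. M-MZL BC has the highest mean for each of the 3 genes, with Activated B cells next for NIBAN3 and RASSF6 and C-MBC 2 next for VPREB3.

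Over 9410 genes, 304 (3.23%) were higher in M-MZL BC than in the averaged other subtypes and 169 (1.8%) lower, taking a fitted log2 difference of 1 or more with the same sign in every animal. The median gene had a fitted log2 difference of 0.13 after TMM scaling (0.087 with DESeq2's size factors). Using the mean of the per-animal log2 CPM differences instead, a choice added after seeing the data, left 288 genes, 172 higher and 116 lower. Without females 2 and 4, whose M-MZL BC held the most GZMB, 492 were higher and 226 lower.

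Beside the markers, the genes with the highest fitted differences, among those of at least moderate mean level (log2 CPM from 4 up), were PTPRN2, MAST4, VPREB1, DNPH1, SHISAL2A, FCRL2 and CNR2. By the per-animal differences printed here the order is another one, with JCHAIN, GPR34 and LY86 above CNR2. PTPRN2, a receptor-type phosphatase of secretory vesicles, was at 102.4 and 98.4 CPM in the males and at 62.3, 29.8, 45.4 and 12 in the females. Both males were above all females, and the log2 difference was 3.09 ± 0.37. FCRL2, an Fc receptor-like protein with inhibitory motifs, ran from 107 to 240 CPM with a median of 141, a log2 difference of 2.72 ± 0.52. Activated B cells were close to it, at 124 CPM, and Naive B cells 1 far below, at 28.9. MAST4, a microtubule-associated kinase, averaged 56.2 ± 17.4 CPM (2.28 ± 0.25). It was again similar in Activated B cells, at 69.2, and in M-MBC 2, at 51.5, while Naive B cells 1 held 1.36.

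CNR2, cannabinoid receptor 2, averaged 30.8 ± 14.8 CPM (log2 difference 1.70 ± 0.55), and DNPH1, an enzyme that splits deoxynucleotides, 51.9 ± 32.5 (2.17 ± 0.63). SHISAL2A averaged 41.6 ± 32.5 CPM (1.98 ± 0.57), below the 60.0 of Naive B cells 1. VPREB1, which pairs with IGLL1 to form the surrogate light chain of precursor B cells, differed between animals more than these. It was at 53.9 CPM in male 2, 65.9 in female 1 and 75.3 in female 3, and at 2.8 in male 1, 1.5 in female 2 and 3.4 in female 4. The 3 high animals came from both sexes, as did the 3 low ones.

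The genes lowest in M-MZL BC were nearly silent there. EYA2, a transcriptional co-activator with phosphatase activity, was at 0 to 1.71 CPM by animal, against 503 in CD11c+ MBC 2 and a mean of 116 over the other subtypes. It was as low in Naive B cells 1, at 0.941, and in Activated B cells, at 1.79. KIR3DL0, of the killer cell immunoglobulin-like receptor family, averaged 0.143 CPM against 17.9, and RTN4R, the Nogo receptor, 0.403 against 13.7. KIR3DL0 has near-identical copies, so its counts are uncertain. ROR1, a receptor tyrosine kinase-like protein, averaged 0.906 CPM against 21.7, and ADRB1, the beta-1 adrenergic receptor, 2.30 against 17.7. PARM1 (2.5 against 22.9), RASL11A, a small GTPase (2.10 against 19.7), and SLC24A4, a sodium, potassium and calcium exchanger (1.05 against 14.5), complete the 8 lowest by the fitted difference. By per-animal differences MAML3 and TOX, described with their lists, were lower than some of these.

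The list of marginal zone genes held 18 names, of which 13 were measured, with 5 higher in M-MZL BC, 0 lower and a median fitted log2 difference of 0.86 (0.13 over all genes). The median of the per-animal differences was 0.60 (0.16 over all genes). Over all genes, 3.23% were higher and 1.8% lower by the same criterion, and each list count that follows is to be read against these shares. CR2, complement receptor 2, was at 33.0 and 43.6 CPM in the males and at 44.2, 46.1, 52.2 and 65.0 in the females. The animals lay close together, and the log2 difference was 1.92 ± 0.72. CR2 was nevertheless higher in Naive B cells 1, at 81.1 CPM, and lower in M-MBC 1, at 11.2, and M-MBC 2, at 3.74. CR1, complement receptor 1, averaged 126 ± 49.8 CPM (1.91 ± 0.58), against 225 in C-MBC 2, 92.7 in Naive B cells 1 and 28.7 in M-MBC 1.

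MZB1, a chaperone of immunoglobulin assembly, averaged 146 ± 57.4 CPM (1.82 ± 0.47) and was higher only in antibody-secreting cells, at 2622. FCRL3, another Fc receptor-like protein, averaged 41.9 ± 12.3 CPM (1.47 ± 0.59), below the 63.8 of Activated B cells. TNFRSF13B, a receptor for BAFF and APRIL, averaged 147 ± 51.8 CPM (0.69 ± 0.46). It set M-MZL BC apart from Naive B cells 1, at 6.49, but not from M-MBC 2, at 226, or CD11c+ MBC 2, at 301. Without Naive B cells 2 and 3 in the mean its fitted difference fell below 1, to 0.19.

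The other 8 measured marginal zone genes did not meet the criterion. CD1C, which presents lipid antigens, averaged 267 ± 171 CPM, less than the 564 of CD11c+ MBC 2 but above Naive B cells 1 (142) in 6 of 6 animals. NOTCH2, the receptor that marginal zone B cells need in mice, averaged 104 ± 43.4 CPM and was above the mean of the others in 5 of 6 animals (0.50 ± 0.47). PLD4, an endolysosomal nuclease, averaged 92.1 ± 28.2 CPM (0.76 ± 0.35), and CD1D, which presents lipids to NKT cells, 8.19 ± 2.42 (0.50 ± 0.29). Both were above the mean of the others in 6 of 6 animals without reaching a log2 difference of 1. S1PR1, a receptor for the lipid that draws lymphocytes out of tissue, averaged 140 ± 149 CPM (0.04 ± 0.36), with male 1 alone at 437. FCRL5, DTX1, a NOTCH target and regulator, and CD9, a tetraspanin, had log2 differences of 0.04 ± 0.29, -0.24 ± 0.99 and -0.32 ± 0.56. CD27 was not among the listed gene names and is not analysed here.

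**Figure D2:**
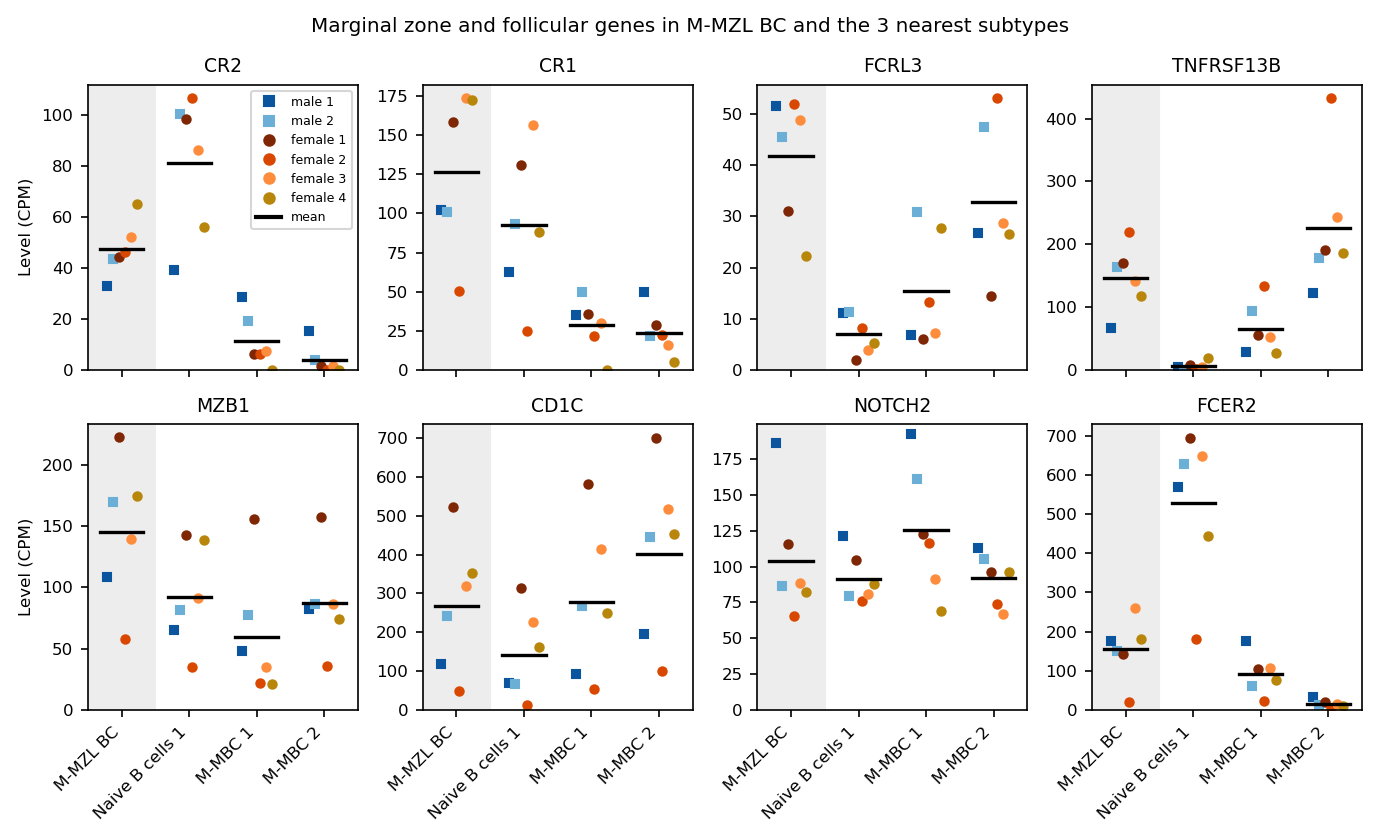
Level (CPM) of 7 marginal zone genes and of FCER2, a gene of follicular and naive B cells, in M-MZL BC and 3 other subtypes. Those 3 had the smallest mean distance from M-MZL BC, though which subtypes are nearest is not resolved. Points are animals and bars means. CR2 and CR1 have higher means in M-MZL BC than in both M-MBC subtypes, and FCER2 a lower one than in Naive B cells 1.

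In the NOTCH pathway, 16 of 20 listed genes were measured, with 1 higher and 2 lower (3.23 and 1.8% over all genes) and a median fitted difference of 0.19, against 0.13 over all genes. MAML2 and MAML3 code for related co-activators of NOTCH transcription complexes and moved apart. MAML2 averaged 164 ± 77.1 CPM, a log2 difference of 1.41 ± 0.28, and MAML3 5.25 ± 3.02, a log2 difference of -2.08 ± 1.16. HES4, a target of the pathway, averaged 1.59 CPM against 11.3. HES1, the classical target, was above the mean of the others in 6 of 6 animals but by less than 1 (0.90 ± 0.61).

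Among genes of BCR signalling, 3 of 20 were higher and 0 lower, against 3.23 and 1.8% over all genes. CD79B, the partner of CD79A, ran from 937 to 2726 CPM with a median of 1317, a log2 difference of 1.6 ± 0.35. CD72, a co-receptor that dampens signalling, averaged 81.2 ± 15.8 CPM (1.17 ± 0.49), against an arithmetic mean of 69.0 over the other subtypes. CD5 was low throughout, at 6.89 ± 6.93. CD5 met the criterion by its fitted value of 1.03 only, its per-animal difference being 0.54 ± 0.40. Of TNF family receptors and NF-kB genes, 4 of 15 were higher. LTB (lymphotoxin beta) averaged 495 ± 200 CPM (1.51 ± 0.47), TNFRSF13C (the BAFF receptor) 131 ± 37.0 (1.18 ± 0.47) and CD40, the receptor for T cell help, 262 ± 70.0 (1.08 ± 0.27). TNFRSF13B was the fourth.

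LY86, which pairs with the Toll-like receptor relative CD180, averaged 76.2 ± 30.7 CPM (2.01 ± 0.45) and was the 1 gene of 13 measured on the Toll-like receptor list to meet the criterion. Of the B cell transcription factors, 0 of 18 were higher and 1 was lower. That was MEF2C, a factor downstream of BCR signals, at 317 ± 68.8 CPM (-1.0 ± 0.17). SPIB and TCF4, an E protein, were above the mean of the others in 6 of 6 animals. The differences were 1.00 ± 0.32 and 0.84 ± 0.12. None of the 7 measured genes of MHC class II and presentation met the criterion.

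The lists for other B cell states were split. Of the naive genes, 3 of 20 were higher and 0 lower (3.23 and 1.8% over all genes). FCER2 (CD23), the low-affinity IgE receptor, averaged 155 ± 78.2 CPM (1.73 ± 0.65), RFLNB 42.4 ± 29.8 (1.19 ± 0.33), and CD72 was the third. Of the memory genes, 1 of 15 was higher, TNFRSF13B, and 1 lower, COCH, which was at 0 in the M-MZL BC of every animal. COCH averaged only 3.30 CPM over the other subtypes, and its per-animal difference was -0.51 ± 0.17. The atypical list had 3 of 14 higher, FCRL2 and FCRL3 among them, and 3 lower (SOX5, DUSP4, a phosphatase of MAP kinases, and TOX, a chromatin factor of exhausted and atypical lymphocytes). TOX averaged 15.9 ± 8.61 CPM against 115.

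For plasma and secretory genes, 3 of 12 were higher, against 3.23% over all genes. JCHAIN, which joins IgM pentamers and IgA dimers, ran from 123 to 467 CPM with a median of 245 and a log2 difference of 2.46 ± 0.38. Activated B cells, at 278, were level with it, C-MBC 2 stood higher, at 446, and antibody-secreting cells far higher, at 7844. DERL3, of endoplasmic reticulum degradation, averaged 109 ± 78.0 CPM (1.39 ± 0.33), and MZB1 was the third. Of homing genes, 3 of 16 were higher. GPR34, a lysophosphatidylserine receptor, averaged 18.8 ± 9.26 CPM (2.11 ± 0.65). CCR9 and CCR6, receptors of gut and mucosal chemokines, averaged 6.53 ± 3.89 (1.17 ± 0.65) and 78.9 ± 45.7 (0.47 ± 0.30). CCR6 met the criterion by its fitted value of 1.01 only.

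The remaining lists had 1 or 2 members past the criterion, beside 3.23% of all genes higher and 1.8% lower. Of immediate early and stress genes, 0 of 15 were higher and 2 lower, ATF3 (-1.58 ± 0.66) and NR4A3 (-1.46 ± 0.79), both induced rapidly by stimulation. Of interferon response genes, 2 of 13 were higher, IFIT3 (0.76 ± 0.34) and OAS3 (0.83 ± 0.62). Both met the criterion by their fitted values only (1.25 and 1.26). IFIT3 was at 565 CPM in female 2, against 4.35 to 95.6 in the other animals. The cell cycle list had 0 of 9 higher and 1 lower, CENPF, a kinetochore protein, at 7.14 CPM against 39.8. It too passed by the fitted value only, its per-animal difference being -0.92 ± 0.50. The germinal centre list had 1 of 5 higher, ELL3, an elongation factor, at 105 ± 48.5 CPM (1.25 ± 0.45).

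Markers of other blood cells were low but not absent. Marker sums and pooled levels are scaled to all UMIs, those of unnamed and immunoglobulin genes included. They cannot be set against the single-gene CPM given elsewhere, which are scaled to the named genes. Summed over 9 NK cell markers, M-MZL BC held 12.4 to 555 CPM by animal and the other B cells 29.3 to 302, with M-MZL BC higher in 2 animals. Females 2 and 4 were those animals. CST7 weighed on this comparison, at 83.4 CPM in the other B cells against 12.6 in M-MZL BC, pooled over animals. Every other NK marker in the sum had a higher pooled level in M-MZL BC. Over the 6 measured NK genes the median fitted log2 difference was 2.41, and that of the per-animal differences 1.39. Only 1 of the 6 met the criterion, but GZMA and GZMB were above the mean of the other subtypes in 5 of 6 animals. GZMB, a granule protease on the NK and dendritic cell lists, was at 287 CPM in female 2 and 315 in female 4, against 2.79 to 78.7 in the others. KLRB1, an NK receptor, averaged 15.3 ± 10.1 CPM and was above the average of the others in 6 of 6 animals, though single subtypes exceeded it in some animals. T cell markers summed to 87.9 to 328 CPM (75.3 to 344 in other B cells) and monocyte markers to 130 to 396 (138 to 288), the latter higher in M-MZL BC in the 4 females and lower in both males. The sums of platelet and red cell markers were 21.7 to 265 (18.0 to 253). Beside KLRB1, the markers CD4 (11.8 against 5.08 CPM), CD5 and TYROBP (239 ± 70.6 against 147 CPM) met the criterion for higher genes. TYROBP made up most of the monocyte sum, with 1643 UMIs, while S100A8 had 3 UMIs and FCN1 1 in all M-MZL BC. The dendritic cell markers CLEC9A and CLEC10A were at 0 UMIs. The part of such RNA in the differences above was not tested.

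By the root mean square of log2 CPM differences over genes, the nearest subtypes were M-MBC 1 (0.698 ± 0.222, n = 6), M-MBC 2 (0.717 ± 0.176) and Naive B cells 1 (0.739 ± 0.086). These distances overlap between animals, so neither their order nor which subtypes are the nearest is resolved. Activated B cells were at 0.801 ± 0.346, with 0.567 the lowest and 1.48 the highest animal. Genes were compared with single subtypes only for M-MBC 1, M-MBC 2 and Naive B cells 1, and not for Activated B cells.

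Against M-MBC 1, 200 genes (2.13%) were higher in M-MZL BC and 201 (2.14%) lower. PTPRN2 (58.4 against 2.54 CPM), SPATS2L (139 against 9.96), RASSF6, NIBAN3 and JCHAIN (282 against 34.4) led the higher genes. SPATS2L was at 104 to 196 CPM in M-MZL BC, a log2 difference of 3.90 ± 1.43. TOX2, a relative of TOX, was among the lowest, at 7.08 against 143 CPM (-4.18 ± 1.08), with KIR3DL0, RTN4R, SLC24A4 (1.05 against 26.0) and ADRB1 (2.30 against 36.4).

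Against M-MBC 2, 180 genes (1.91%) were higher and 206 (2.19%) lower. The highest were ST6GALNAC3, a sialyltransferase (26.3 against 0.907 CPM), CR2, VPREB3 (74.1 against 7.64), RFLNB (42.4 against 4.34) and PTPRN2. METRNL, a secreted protein, was at 14.9 against 198 CPM (-3.58 ± 0.48), and C15orf48 at 5.68 against 65.9, with RTN4R, EYA2 (0.958 against 12.6) and KIR3DL0 the other lowest. Of the 15 measured memory genes, 0 were higher and 5 lower than in M-MBC 2.

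Against Naive B cells 1, 356 genes (3.78%) were higher and 274 (2.91%) lower. ZBTB32, a transcriptional repressor that restrains memory B cell responses, was at 65.6 against 1.46 CPM. DLGAP1 was at 469 against 15.8 and CD70, the ligand of CD27, at 20.7 against 0.569, with male 2 at 66.9 and the other animals at 1.49 to 19.7. The list of the 5 highest was completed by MAST4 and TNFRSF13B. TCL1A, a classical gene of naive B cells, was at 10.4 against 120 CPM. GAB1, a signalling adaptor (6.68 against 89.3), AREG, an EGF receptor ligand (7.93 against 94.6), PARM1 and MAML3 were the other lowest. Of the naive list, 0 of 20 were higher and 11 lower, and of the memory list 10 of 15 were higher and 0 lower.

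The BCR gives measures that are separate from the expression clusters, though whether immunoglobulin transcripts entered the clustering is not given in the sources used here. A BCR contig was found for 1500 M-MZL BC cells, exactly 1 productive heavy chain for 1387 and exactly 1 light chain for 1329. Of the heavy chains, 1206 had the constant gene IGHM, 142 IGHD, 22 IGHG1, 13 IGHA and 1 IGHG3. Against 8 other subtypes, 6 receptor measures were compared, 48 tests in all, each an exact two-sided sign-flip permutation test over animals with Benjamini-Hochberg adjustment. The smallest p is 0.03125 with 6 animals and 0.0625 with 5, and the smallest adjusted p was 0.075. No adjusted p was below 0.05, while 20 of 48 were so before adjustment.

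Divergence is the number of bases per 100 of the variable gene that differ from the nearest common sequence of the same gene in the same animal. A value existed for 1227 of the 1387 M-MZL BC cells with 1 heavy chain, the rest having no common sequence to be compared with. Coverage was poor in female 4, with 8 cells under 1 and 24 of 2 or more among its 112 unswitched cells. By animal, divergence was 1.95 at the lowest and 2.99 at the highest in M-MZL BC, with a mean of 2.45 ± 0.335 (n = 6). Naive B cells 1 were at 0.083 ± 0.093, M-MBC 1 at 0.696 and CD11c+ MBC 1 at 1.44, all below M-MZL BC in 6 of 6 animals (exact permutation p = 0.03125, adjusted 0.075). M-MBC 2 could not be told from it, at a difference of -0.001 ± 0.240 in 5 animals. C-MBC 1, at 5.31, and C-MBC 2, at 5.05, were above it in every animal compared. CD11c+ MBC 2, at 4.3, was also above it, but among unswitched cells the difference turned to 0.043.

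Within M-MZL BC, 16.0% ± 1.47 of cells with a value had no difference from a common sequence, against 94.5% of Naive B cells 1. At the other end, 49.8% ± 7.68 had 2 or more per 100 bases and 12.5% had 5 or more. The cluster therefore held unmutated and mutated cells in every animal. A common sequence is inferred from the data, so an unseen allele counts as divergence and a change shared by many lineages does not.

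Few M-MZL BC cells had switched class. The share with IgG or IgA was 1.34% and 2.76% in the males and 2.09, 4.60, 3.54 and 5.88% in the females (3.37% ± 1.67). It was above Naive B cells 1 (0.455%) and below M-MBC 2 (12.4% ± 7.11) in 6 of 6 animals, and C-MBC 1 and C-MBC 2 stood at 78.5 and 80.3%. IgD made up 11.1% ± 11 of unswitched M-MZL BC, with female 2 at 31.3% and male 1 at 15.7% above the rest. Naive B cells 1 were at 30.5% ± 18.2.

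The heavy CDR3, the loop at the centre of the binding site, was short. It averaged 15.05 and 15.29 amino acids in the males and 14.95, 14.75, 14.94 and 14.42 in the females. In Naive B cells 1 it averaged 16.69, 16.86, 16.60, 16.53, 16.70 and 16.18 in the same order, with no overlap and a difference of -1.70 ± 0.085 (exact permutation p = 0.03125, adjusted 0.075). The difference was -1.21 ± 0.395 from M-MBC 1 and -1.33 from C-MBC 1, with the same sign in 6 of 6 animals. M-MBC 2 (-0.102 ± 0.355) and Activated B cells (-0.348 ± 0.694) did not differ from M-MZL BC beyond the spread between animals.

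CDR3s of 12 or fewer amino acids made up 19.6% ± 1.93 of M-MZL BC, 19.8% of M-MBC 2 and 10.3% ± 0.720 of Naive B cells 1. Those of 20 or more made up 6.55 and 21.1% in M-MZL BC and Naive B cells 1. Within M-MZL BC, cells of divergence under 1 averaged 15.3 ± 0.342 amino acids (5 animals) and those of 2 or more 14.9 ± 0.185 (6 animals). In female 3 the order was the other way, at 14.73 and 15.01. Among cells of divergence under 1 in both, M-MZL BC were still shorter than Naive B cells 1, by -1.39 amino acids, in each of the 5 animals.

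Kappa light chains were carried by 49.9 and 54.2% of M-MZL BC in the males and by 58.6, 55.2, 67.7 and 57.1% in the females. Naive B cells 1 had 41.6 and 40.5% and then 46.8, 41.5, 52.9 and 39.5%. Kappa was higher in M-MZL BC in 6 of 6 animals, by 13.3 percentage points ± 3.12 (exact permutation p = 0.03125, adjusted 0.075). The same held for M-MBC 2 (12.3 ± 7.24), C-MBC 2 (14.0 ± 4.38) and CD11c+ MBC 1 (10.5 ± 7.32). Among unswitched cells, the difference from Naive B cells 1 kept its sign in every animal. Those from M-MBC 2 and CD11c+ MBC 1 did not. C-MBC 2 had 10 or more unswitched cells with 1 heavy chain only in male 1, male 2 and female 1, and a comparison needed 5 animals. Activated B cells, at 57.7%, differed by -0.525 ± 11.8.

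**Figure D3:**
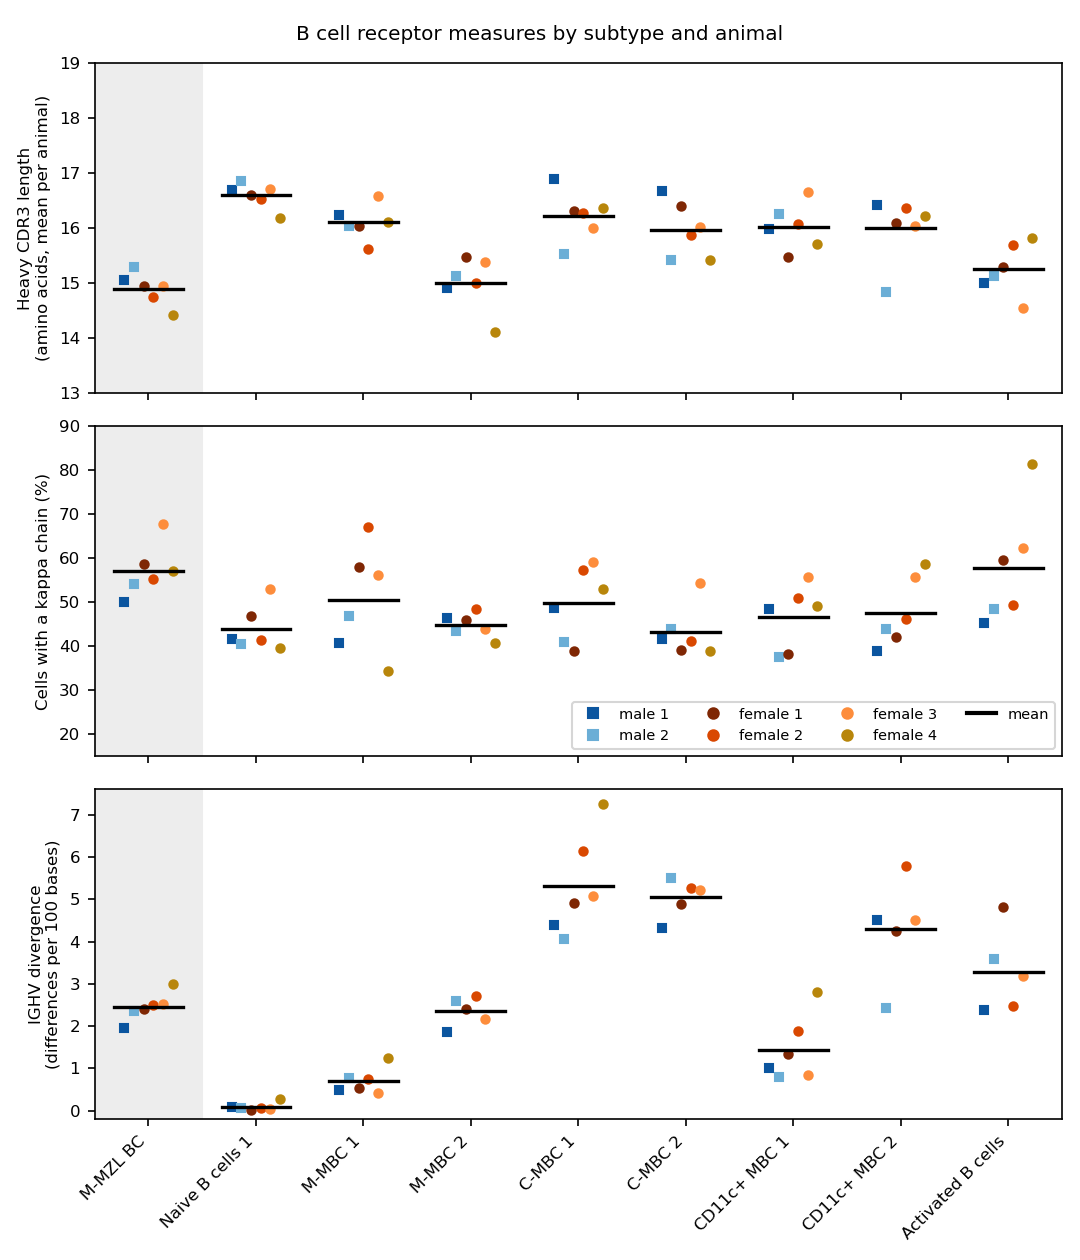
Mean heavy CDR3 length (amino acids), kappa share (percent of cells with 1 light chain) and divergence of the heavy chain variable gene (differences per 100 bases) of each animal by subtype; bars are means and the axes of the first 2 panels do not start at 0. M-MZL BC has CDR3s near those of M-MBC 2 and Activated B cells, a mean kappa share near that of Activated B cells, and a divergence above Naive B cells 1 and M-MBC 1 and below both C-MBC subtypes.

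IGHJ4, a heavy chain joining gene, was used by 61.4% ± 3.27 of M-MZL BC and by 55.6% of CD11c+ MBC 1, higher in 6 of 6 animals. It was used by 51.7% of Naive B cells 1 (higher in 5 of 6) and 63.4% of M-MBC 2.

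Clonal relatives were rare. Of the 1387 M-MZL BC cells with a heavy chain, 30 belonged to 21 clones of 2 or more cells with the same genes and CDR3 in an animal, and 9 clones were wholly M-MZL BC, each of 2 cells. Partners in mixed clones were M-MBC 1, C-MBC 2 and Activated B cells in 3 clones each, M-MBC 2 in 2 and C-MBC 1 in 1. No nucleotide CDR3 of M-MZL BC occurred in the M-MZL BC of another animal, and amino acid CDR3s were not compared. The CDR3s of 3 of the 9 are shown as examples of such pairs, in lower case throughout.
female 4, IGHV3-182 with IGHJ4 and IGKV1-18: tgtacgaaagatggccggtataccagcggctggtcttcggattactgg
male 2, IGHV3-136 with IGHJ4 and IGKV2-65: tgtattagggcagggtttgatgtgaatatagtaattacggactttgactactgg
female 1, IGHV3-54 with IGHJ4 and IGLV7-88: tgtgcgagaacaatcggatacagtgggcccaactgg
They code for 16, 18 and 12 amino acids, and the variable genes diverged by 4.91, 0.702 and 2.11 per 100 bases.

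Variable gene usage was tested by edgeR on the number of cells per gene. Of 30 IGHV genes tested, 2 (6.67%) were used more by M-MZL BC than by all other named B cells and 0 less. IGHV3-116 was carried by 12.6 and 7.37% of M-MZL BC in the males and by 9.21, 3.41, 7.07 and 2.5% in the females. The other B cells of the same animals had 5.01 and 3.26% and then 2.35, 0.816, 3.09 and 0.840%. The groups overlap between animals, but M-MZL BC was higher within 6 of 6, with a log2 difference of 1.41 ± 0.17 (SE) and an adjusted p of 3.09e-05 by edgeR. Without the animal as a block the call was lost. M-MBC 2, at 6.60%, and Activated B cells, at 5.69%, were close to M-MZL BC, and Naive B cells 1 were at 1.6%.

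The IGHV3-116 cells of M-MZL BC were mutated like the rest, at a divergence of 1.91, 2.08, 2.91 and 2.07 in male 1, male 2, female 1 and female 3, while the 17, 1, 4 and 8 such cells of Naive B cells 1 were at 0 in these animals. In females 2 and 4, with 3 IGHV3-116 cells of M-MZL BC each, none had a divergence value. IGHV3-178 was carried by 3.77% ± 1.23 of M-MZL BC and 1.98% ± 0.511 of the others. The log2 difference was 0.89 ± 0.24 (SE), with an edgeR adjusted p of 0.0442. IGHV3-178 was higher in 5 of 6 animals. Its call was lost without male 1, male 2, female 2 or female 3. By family, chosen after seeing the values, IGHV3 genes made up 46.6% ± 4.81 of M-MZL BC and 27.9% ± 3.03 of Naive B cells 1, higher in 6 of 6 animals, while IGHV1 (2.29 against 9.42%) and IGHV4 (42.9 against 52.0%) were lower in 6 of 6.

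Of 32 light chain V genes, 2 (6.25%) were used more and 3 (9.38%) less. IGKV1-94 was carried by 3.84% of M-MZL BC and 1.71% of the others (log2 difference 1.21 ± 0.28 SE, edgeR adjusted p = 0.000353), higher in 6 of 6 animals. IGKV2-72 was at 2.81 against 1.20% (edgeR adjusted p = 0.0149), with female 2 at 6.25%. Its call was lost without male 1. IGLV3-36 was at 0.278 against 2.03% (-2.64 ± 0.53 SE, edgeR adjusted p = 4.39e-05), IGLV1-85 at 0.676 against 2.5% (edgeR adjusted p = 0.00127) and IGLV3-34 at 1.03 against 3.47% (edgeR adjusted p = 0.00178), each lower in 6 of 6. IGLV3-36 was as low in M-MBC 2 (0.210%) and Activated B cells (0.087%), and IGLV1-85 was close, at 1.00 and 0.948%. IGLV3-34 was at 2.13% in M-MBC 2 and 0.260% in Activated B cells. The number of light chain calls was 14 without female 4 and 2 without male 1. Neighbouring V genes share long stretches, so single assignments are uncertain.

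**Figure D4:**
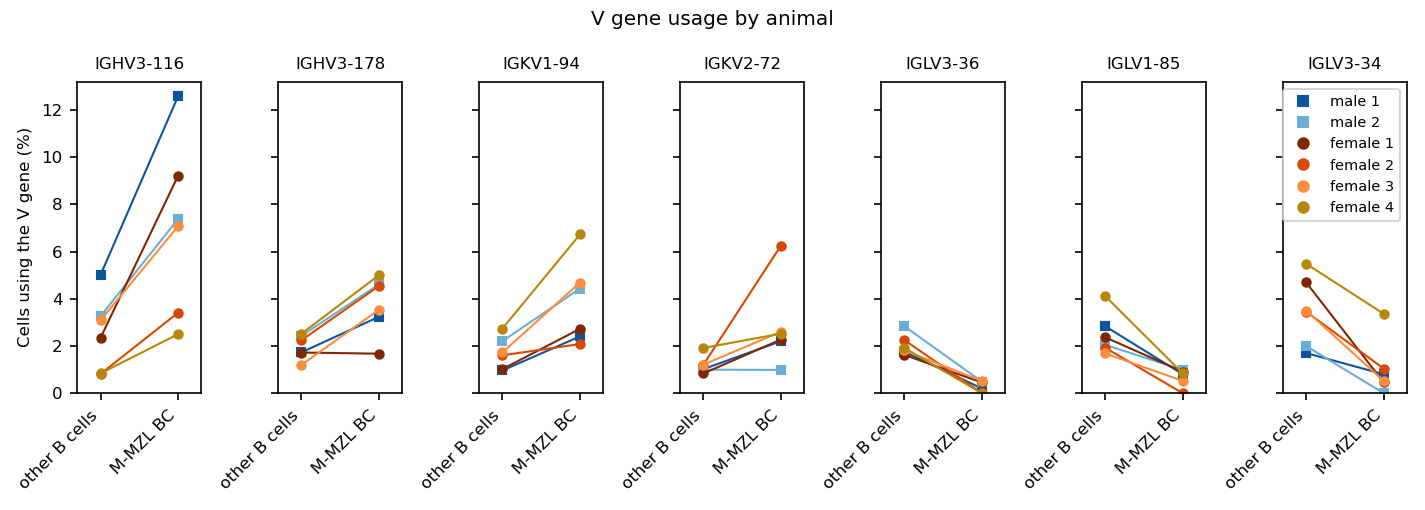
Share of cells (percent) with each of the 7 called V genes in all other named B cells (left) and in M-MZL BC (right); lines join the 2 values of an animal. IGHV3-116 and IGKV1-94 are higher in M-MZL BC in every animal, and the 3 IGLV genes lower in every animal.

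The mutated and less mutated cells of M-MZL BC were then compared. The split uses receptor sequences and not expression levels, though all cells compared were placed in M-MZL BC by the expression clusters. Unswitched cells of divergence 2 or more were set against those under 1 in 5 animals, female 4 having fewer than 10 of the latter. Of 5371 genes, 14 (0.261%) rose with mutation and 5 (0.0931%) fell at an edgeR adjusted p under 0.05. SPAG16, MAST4 and SULF2 were among those that rose, and MPP7, VAV3 and ID2 were among those that fell.

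SPAG16, a protein of the ciliary axoneme, was at 82.1 and 414 CPM in the mutated cells of males 1 and 2 and at 166, 127 and 262 in females 1 to 3. In the less mutated cells it was at 56.0, 182, 27.7, 13.9 and 100.9 in the same order. Each animal rose, with a log2 difference of 1.35 ± 0.17 (SE) and an edgeR adjusted p of 1.55e-07, a call that DESeq2 did not make. SULF2, an extracellular sulfatase, was at 47.3 ± 12.9 CPM in mutated and 6.47 ± 9.5 in less mutated cells (2.29 ± 0.37 SE, edgeR adjusted p = 5.2e-05), and at 0 in the mutated cells of female 4. MAST4 was at 69.4 ± 27.8 and 20.1 ± 14.2 (1.66 ± 0.25 SE, edgeR adjusted p = 1.06e-05).

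ZBTB32 rose from 42.1 to 90.2 CPM (edgeR adjusted p = 0.0021) and ATRNL1 from 162 to 317 (edgeR adjusted p = 3.53e-07). DLGAP1, a synaptic scaffold protein, ITGB1, the beta-1 integrin of memory cells, PRDM2, a histone methyltransferase, and SGPP1, a phosphatase of sphingosine 1-phosphate, also rose in all 5 animals. RABGAP1L, SYNE2, a nuclear envelope protein, and USP48, a ubiquitin protease, did so too, and BORCS5 and PDGFD, a growth factor, in 4 of 5. MPP7, a polarity scaffold, fell from 71.9 to 29.0 CPM (-1.33 ± 0.25 SE, edgeR adjusted p = 0.000998), lower in 5 of 5 animals, although the mutated cells of female 4, which did not enter the comparison, held 157. VAV3, an exchange factor downstream of the BCR, fell from 156 to 90.1, and ID2, an inhibitor of E proteins, from 62.8 to 23.4, each in 5 of 5. CPA6, a carboxypeptidase, was lower in 4 of 5. DESeq2 called 5 of the 19, with ATRNL1, DLGAP1, MAST4 and SULF2 among them, and 0 were called without the animal as a block.

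**Figure D5:**
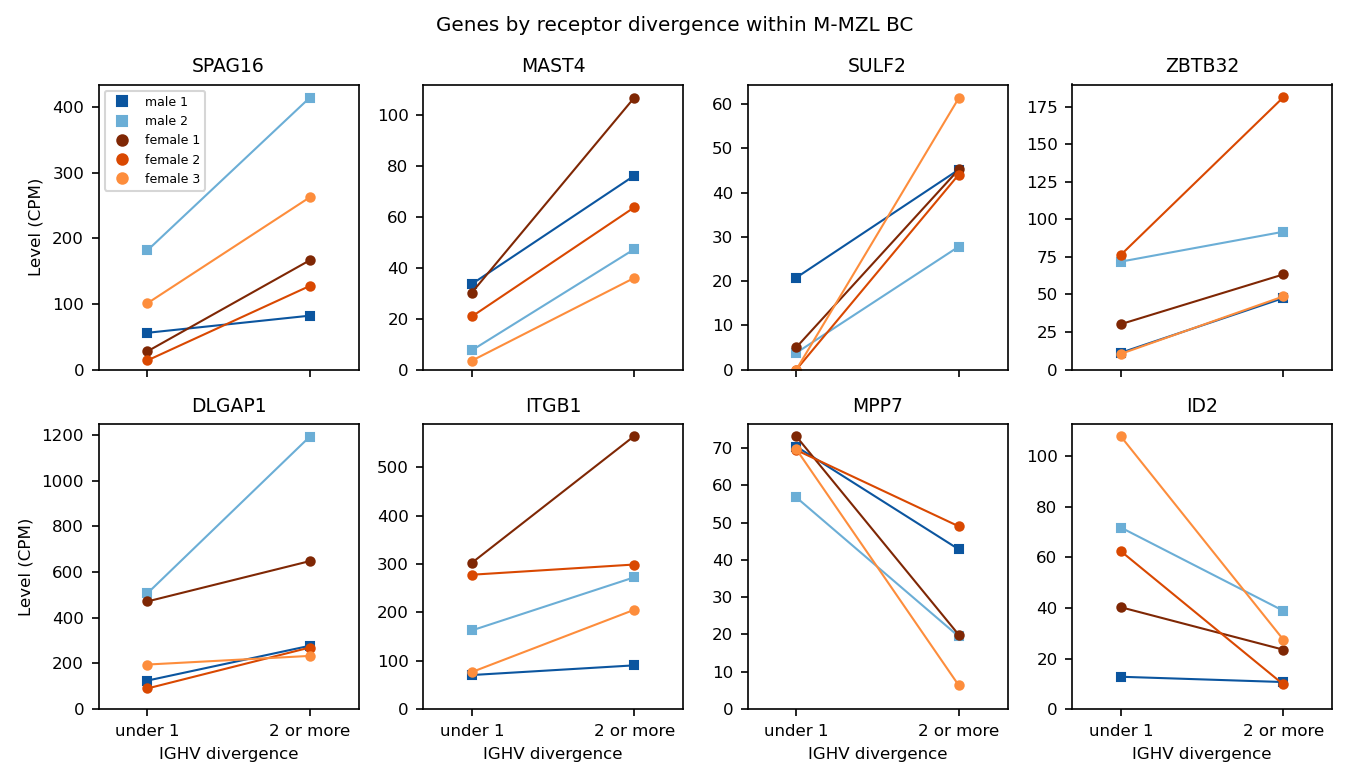
Level (CPM) of 8 of the 19 called genes in unswitched M-MZL BC of IGHV divergence under 1 and of 2 or more; lines join the values of an animal, for the 5 animals compared. The first 6 genes rise in each animal, and MPP7 and ID2 fall in each.

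The marker genes of the cluster were not called in this comparison. NIBAN3 differed by -0.05 ± 0.20 and VPREB3 by 0.04 ± 0.21 (SE, log2). RASSF6 differed by 0.64 ± 0.21, with an edgeR adjusted p of 0.223. CR1 and FCER2 were lower in the mutated cells of 5 of 5 animals, by -0.45 ± 0.14 and -0.44 ± 0.13, at edgeR adjusted p of 0.205 and 0.142.

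Between kappa and lambda cells, 1 of 5380 genes (0.0186%) was called by edgeR, and 220 had an unadjusted p under 0.05. It was VPREB1, named as the only call. In male 2, female 1 and female 3, lambda cells held 98.7, 94.2 and 94.99 CPM and kappa cells 30.4, 39.2 and 52.5. In the other 3 animals both were at 6.95 or less. The log2 difference was -1.25 ± 0.23 (SE, edgeR adjusted p = 0.00459), and kappa was lower in 5 of 6 animals. VPREB1 was not among the calls without male 2, female 1 or female 3, without the animal as a block, or with DESeq2, which called 0.

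Between females and males, which are also batches, 9 of 8457 genes (0.106%) were higher in female M-MZL BC and 19 (0.225%) in male at an edgeR adjusted p under 0.05. The 19 included RPS4Y1, DDX3Y, UTY and USP9Y of the Y chromosome, each at 0 in the 4 females. Genes outside the Y chromosome were among the 19 too. ZC3H10 was at 4782 CPM in males against 1250 in females, KCTD5 at 202 against 61.6 and ANO10 at 232 against 45.8. Among the 9 were SERP1, a stress protein of the endoplasmic reticulum (125 ± 15.8 against 15.8 CPM), JUNB, an immediate early factor (860 ± 326 against 131), and SOCS3, a brake on cytokine signals (90.8 against 32.5). PF4 and PPBP, which platelets release, were at 75.3 against 5.27 and 134 against 11.2 CPM. The summed platelet and red cell markers of M-MZL BC were at 155 to 265 CPM in females and at 21.7 and 38.4 in males. These sums are scaled to all UMIs, unlike the levels of single genes. The part of platelet and red cell RNA in these differences was not tested. The count was 148 without female 2, 9 without male 1, 14 without female 1, 15 without female 3, 16 without female 4 and 19 without male 2.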

How the data were processed

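Cells and subtypes are those of the deposited annotation, and the members and gene lists were chosen with earlier results of these data known. The authors deposited raw UMI counts per gene and cell, already filtered, with the percent of ribosomal and mitochondrial UMIs per cell computed by the authors. The BCR contigs were deposited with counts of UMIs and reads, per the file headers. The submitters' processing notes name Seurat 5.0.1, R 4.3.1 and Cell Ranger 9.0.1, without roles. Genome build, annotation and immunoglobulin reference are not given in the sources used here. Samples, per the labels, are peripheral blood mononuclear cells of 6 separate animals. No doublet caller was run, because the deposited cell table already holds only cells called singlets.

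Unnamed identifiers (5813 of 22584 genes, 14.9% of UMIs) and 23 named immunoglobulin genes (0.186%) were left out. Counts were summed per animal and subtype (10 cells or more) and fitted with edgeR 4.0.16 in R 4.3.3 (filterByExpr, TMM, quasi-likelihood, the animal as a block, Benjamini-Hochberg adjustment). The block is natural, since both classes come from the same animal. DESeq2 1.42.0 was an alternative. Fitted differences are inflated where a subtype has no counts, so the text gives differences of log2 CPM within animals. Receptor measures used cells with exactly 1 productive heavy or light chain. A common sequence had 3 or more distinct CDR3s in unswitched cells. The V gene test used the number of cells as library size.

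Named genes were the markers, the 10 highest and 8 lowest of 1 sign in every animal (mean log2 CPM at least 4), the 3 largest of each list, all marginal zone genes, and the 5 highest and lowest against each of the 3 nearest subtypes. Within M-MZL BC the rule took called genes of 1 sign in every animal, and other called genes were named because their number was small. The scripts were tested on simulated data. Some genes that met the rule are not reported here.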

Additional observations from a re-analysis of the deposited data

Results flagged for a closer look

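Among 45 groups of 6 animals checked for a single distant value, 5 had one, where chance alone gives about 1 in 20. FCRL2 was at 239.8 CPM in female 1 and at 107 to 156 in the others. NIBAN3 was at 14.9 CPM in female 2, against 53.5 to 74.5 in the others. S1PR1 was at 437 CPM in male 1, against 47.9 to 126. IGKV2-72 was carried by 6.25% of the M-MZL BC of female 2, against 0.985 to 2.60% elsewhere. IGLV3-34 was carried by 3.36% of those of female 4, against 0 to 1.04%. No receptor measure moved in opposite directions in the 2 sexes in any of 48 comparisons.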

How the results depend on the processing

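Counts of genes that differ from the mean of the other subtypes (473 in all) came to 288 with per-animal log2 CPM differences and to 718 without females 2 and 4, both settings chosen after seeing the data, and to 496 to 646 without 1 animal. Against single subtypes, leaving out females 2 and 4 gave 656 genes for M-MBC 1 and 627 for M-MBC 2, and leaving out 1 animal 401 to 589, 428 to 512 and, for Naive B cells 1, 623 to 790. No replicate block gave 0 calls for kappa against lambda, 0 for mutation and 0 for IGHV usage. Without the filter on low counts, calls came to 4 for kappa against lambda, 51 for mutation and 101 for the sexes, and with DESeq2 to 0, 5 and 122. Leaving out 1 animal gave 0 to 2, 14 to 23 and 9 to 148. Comparisons with 1 direction in every animal numbered 1 for kappa share among unswitched cells, where C-MBC 2 had few cells (4 in all cells). They numbered 2 for IGHJ4 with the chain of most UMIs (1), and 2 of 4 for CDR3 length at divergence under 1 (5 of 8). Leaving out 1 animal gave 4 to 6 for kappa share, 0 to 1 for clones, 1 to 2 for IGHJ4, 5 to 6 for CDR3 length, 6 to 7 for divergence and 6 to 8 for switching. The divergence from CD11c+ MBC 2 turned to 0.043 in unswitched cells. IGHV calls came to 1 with each clone counted once, 4 against Naive B cells 1 only and 1 to 5 without 1 animal, and light chain calls to 3 against Naive B cells 1 and 2 to 14 without 1 animal. Of 1084 alternatives for single genes against the mean of the others, 1046 kept call and direction, 23 lost the call, 15 gained it and 0 turned. Of 443 for genes within M-MZL BC, 307 kept call and direction, 136 lost the call and 0 turned. The cause of these changes was not tested, except that fewer or more genes tested and fewer animals follow from the settings themselves. The fewest M-MZL BC heavy chains, 88, came from female 2, and 6 animals limit every exact test.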
